A study of Homo sapiens with 6 samples.

Results

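Ubiquitin-specific proteases, or USPs, are cysteine proteases that cut ubiquitin from other proteins or from ubiquitin chains. Ubiquitin ligases attach the small protein ubiquitin to their targets, often as a mark for destruction by the proteasome, and USPs reverse that mark, so that each USP can stabilise or redirect its own set of substrates. The family is the largest among human deubiquitinases, and its members act on histones, DNA repair proteins, signalling proteins, endosomes, mitochondria and the proteasome itself. The genes described here are those whose platform symbol begins with USP followed directly by a number, with the USP17L copies left out. This gave 51 genes of 18132 tested. Of the 51, 48 are named as proteases, 2 are pseudogenes (USP41P and USP32P1), and USP6NL encodes a GTPase-activating protein for Rab proteins that shares only the start of its name with USP6. USP10, USP18 and USP32 are not analysed here.

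RNA was taken from HCT116, a human colorectal carcinoma line, and hybridised to Affymetrix arrays. The 2 groups are Ctrl, labelled as control treatment, and CSF3, labelled with the gene symbol of granulocyte colony-stimulating factor, with 3 arrays each. Both groups were grown in RPMI-1640 medium with fetal bovine serum and antibiotics. The labels do not say how CSF3 was given or expressed, what the control received, whether the cells were 1 clone, or whether the arrays of a group came from separate cultures. If they did not, the p-values measure only technical spread.

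The arrays as a whole set the scale for what follows. Pearson's r over probe sets was at least 0.994 within a group and 0.970 to 0.974 between groups. CSF3 itself read 5.13, 4.85 and 4.52 on the Ctrl arrays and 5.97, 5.91 and 5.99 on the CSF3 arrays (log2 signal). Dim genes mostly read higher on the CSF3 arrays and bright genes mostly lower: among genes below the median level of 4.46 the median change was 0.31, and among those above it -0.13. The hybridisation controls were higher on the CSF3 arrays (8.36 ± 0.05 against 6.82 ± 0.07, SD, n = 3), and the gap between 3' and 5' probe sets was wider there for GAPDH (0.682 ± 0.003 against 0.306 ± 0.007) and ACTB (1.94 ± 0.02 against 1.34 ± 0.03). The labels give each group its own code prefix, so a batch that follows those codes and the group cannot be told apart. Of the epithelial markers checked, KRT18 (7.26 on the Ctrl arrays) and KRT8 (6.37) lay above the median level, whereas EPCAM (3.63), KRT19 (2.61) and CDH1 (2.20) lay below it, and 5 of the 12 were under the lower quartile of all genes, 2.73. The low values of EPCAM, KRT19 and CDH1 go against what is known of HCT116. Summed log2 signals of the 12 ran from 39.7 to 40.2 on the Ctrl and 41.3 to 42.2 on the CSF3 arrays, with 7 of the 12 called higher. KRT8 and EPCAM went the other way, falling by 1.32 and 0.33. On the Ctrl and CSF3 arrays in turn, sums of 4 leukocyte genes ran from 17.3 to 18.0 and from 18.3 to 18.5, those of 4 fibroblast genes from 10.9 to 11.3 and from 13.2 to 13.8, and those of 3 endothelial genes from 9.38 to 9.67 and from 11.1 to 11.3. Averaged over the 6 arrays, the fibroblast genes read 2.34 to 3.71 and the endothelial genes 2.26 to 4.13, all below the median level. Called higher were 3 of the 4 fibroblast and all 3 endothelial genes, against 63.6% of all genes below that level. Of the leukocyte genes, PTPRC read 1.42 and 1.66, CD3E 3.39 and 3.87, ITGAM 2.68 and 3.09, and CD68, a bright gene, 10.1 and 9.82. CD3E and ITGAM were called higher and CD68 lower. The part of these differences in the results below was not tested.

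USP genes were lower on the CSF3 arrays more often than higher. Of the 51, 24 fell, 11 rose and 16 did not pass a limma adjusted p of 0.05. Over all genes 72.5% passed, with 27.1% lower and 45.4% higher, so the USP genes had a larger share of falls (47.1%) and a smaller share of rises (21.6%) than the array. Their median change was -0.20 on the log2 scale, against 0.16 for all genes. The signals of the groups did not overlap for 24 genes with CSF3 below and 13 with CSF3 above, against 29.1% and 47.2% of all genes. A fall of at least 2-fold was called for 4 USP genes, against 3.37% of all genes, and a rise of that size for 1, against 0.645%. In a bulk sample such as this, fewer cells that express a gene and less RNA per cell cannot be told apart.

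The direction of change differed with level. USP genes are mostly bright, with 36 above the median level and 15 below it. Among the 36, 63.9% fell and 11.1% rose, against 46.8% and 27.1% of all genes in that range. Among the 15 dim ones, 1 fell and 7 rose, or 6.67% and 46.7%, against 7.49% and 63.6%. After quantile normalization, which removes the difference in distribution between the groups, 15 USP genes were lower and 12 higher, against 20.1% and 39.2% of all genes, and their median was -0.019 against 0.13. Among the bright USP genes 36.1% were then lower and 19.4% higher, close to the 30.4% of all bright genes for falls and under their 42.7% for rises. The dim ones gave 13.3% and 33.3%, against 9.76% and 35.7%. Of the 24 falls, 14 were kept, as were 8 of the 11 rises.

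**Figure D1:**
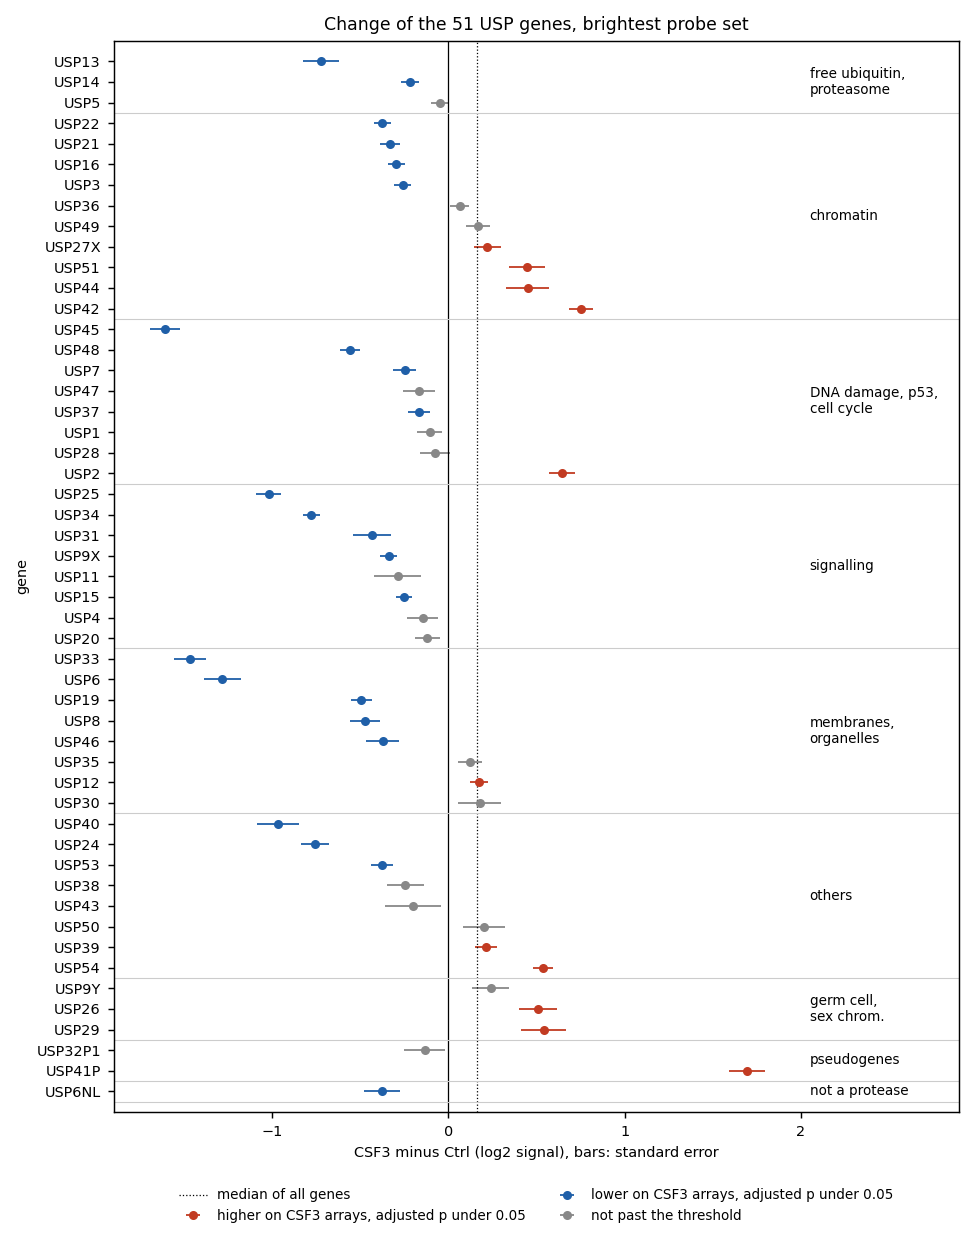
Change of each USP gene between the groups (CSF3 minus Ctrl, log2 signal of its brightest probe set, with the standard error), grouped by what the proteins are known for; colour gives the limma call and the dotted line the median of all genes. The signalling genes all lie left of 0 on this scale, the chromatin genes lie on both sides, and USP41P at 1.70 and USP45 at -1.61 are the extremes.

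**Figure D2:**
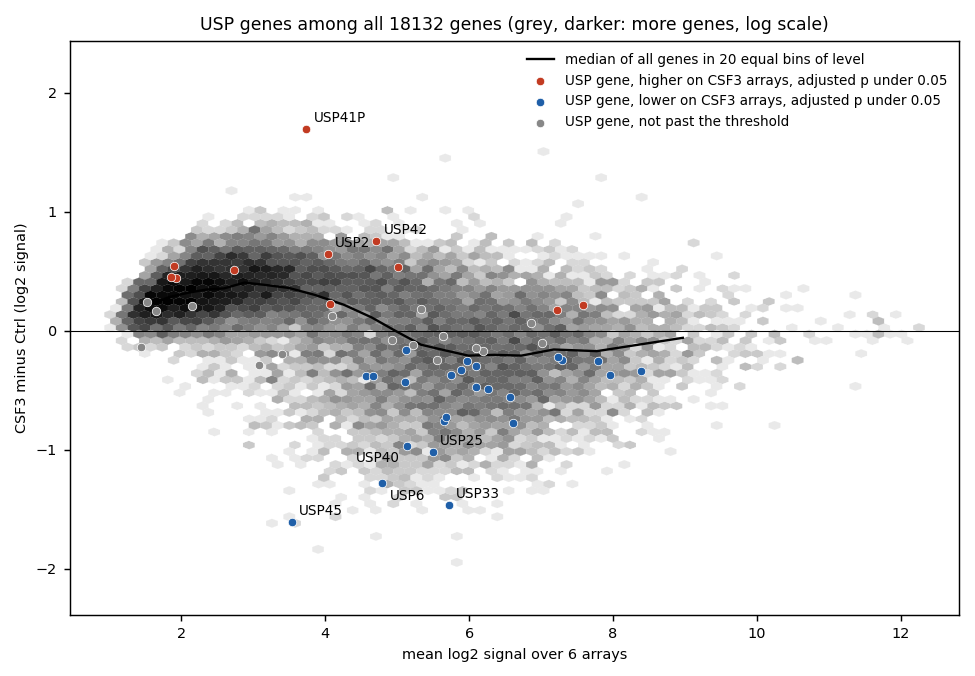
Change (CSF3 minus Ctrl, log2 signal) against mean log2 signal over 6 arrays for all 18132 genes (grey) and the USP genes (coloured by limma call), with the running median of all genes as a line. Dim genes lie mostly above 0 and bright ones below, and most blue points lie below the line.

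USP45 had the largest fall of the family. It encodes a protease that acts on ERCC1, a subunit of a DNA repair nuclease. Its log2 signal was 4.32, 4.44 and 4.26 on the Ctrl arrays and 2.62, 2.88 and 2.69 on the CSF3 arrays. Each CSF3 array thus lay more than 1 log2 unit under every Ctrl array, a 3.05-fold difference of the deposited signals (-1.61 ± 0.08 SE, limma adjusted p = 1.38e-05), the 43rd largest fall of all genes. Its 2 other probe sets disagreed with each other: 1 fell as well, by 0.97, and the other rose by 0.45.

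USP33, which acts on receptors that are being recycled to the cell surface and on the guidance receptor ROBO1, read 6.40, 6.55 and 6.42 on the Ctrl arrays and 4.90, 5.18 and 4.89 on the CSF3 arrays. This was a 2.76-fold fall (-1.47 ± 0.09, limma adjusted p = 2.45e-05). The groups lay far apart, but the second probe set of USP33 gave -0.10 ± 0.06 and did not pass. USP20, the close relative of USP33, read 5.30, 5.36 and 5.18 against 5.08, 5.15 and 5.25, with overlapping groups (-0.12 ± 0.07, limma adjusted p = 0.159).

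USP25 fell on each of its probe sets. Its protein trims ubiquitin from TRAF3 and from proteins leaving the endoplasmic reticulum. Its signal was 6.03, 5.93 and 6.06 on the Ctrl arrays and 4.96, 4.90 and 5.09 on the CSF3 arrays (-1.02 ± 0.07, 2.03-fold, limma adjusted p = 3.11e-05). All 3 probe sets of USP25 were called lower, with changes from -1.04 to -0.76. Its paralogue USP28, known for stabilising MYC, missed the threshold (-0.08 ± 0.08, adjusted p = 0.436 in limma), and none of the 4 probe sets of USP28 was called.

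USP6, an oncogene of bone and soft-tissue tumours that arose in primates from a fusion with USP32 sequence, read 5.31, 5.65 and 5.34 against 4.16, 4.27 and 4.02 (-1.28 ± 0.11, limma adjusted p = 6.68e-05). The 2 other probe sets of USP6 are much dimmer, with Ctrl means of 1.88 each, and rose by 0.54 and 0.28. The bright one has a name ending in _s_at, used for probe sets that can hybridise with more than 1 transcript, so it cannot be assigned to USP6 alone. The same limit holds for 12 of the 51 brightest probe sets, which end in _s_at or _x_at: those of USP6, USP8, USP13, USP21, USP24, USP33, USP40, USP46 and USP53, all called lower, USP39 and USP54, called higher, and USP32P1. USP40 read 5.57, 5.68 and 5.59 against 4.86, 4.37 and 4.71 on its single probe set (-0.97 ± 0.12, limma adjusted p = 0.000374). Its CSF3 arrays were spread more widely than its Ctrl arrays, and still none reached the Ctrl range.

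USP34 and USP24 encode 2 of the longest proteins of the family, and USP34 is known for its role in Wnt signalling through axin. USP34 read 6.98, 7.00 and 7.00 against 6.25, 6.21 and 6.18 (-0.78 ± 0.05, limma adjusted p = 2.53e-05). USP24 read 5.96, 6.12 and 6.02 against 5.15, 5.27 and 5.41 (-0.76 ± 0.08, limma adjusted p = 0.000199). Each has a second probe set that fell too, by 0.85 for USP34 and by 0.92 for USP24. USP9X, the third of these very long proteins and an X-linked one, fell less on its brightest probe set, from 8.55, 8.57 and 8.54 to 8.25, 8.20 and 8.20 (-0.34 ± 0.05, limma adjusted p = 0.000735). Its 3 next probe sets fell further, by 0.83, 1.02 and 0.99, and the dimmest gave 0.03.

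**Figure D3:**
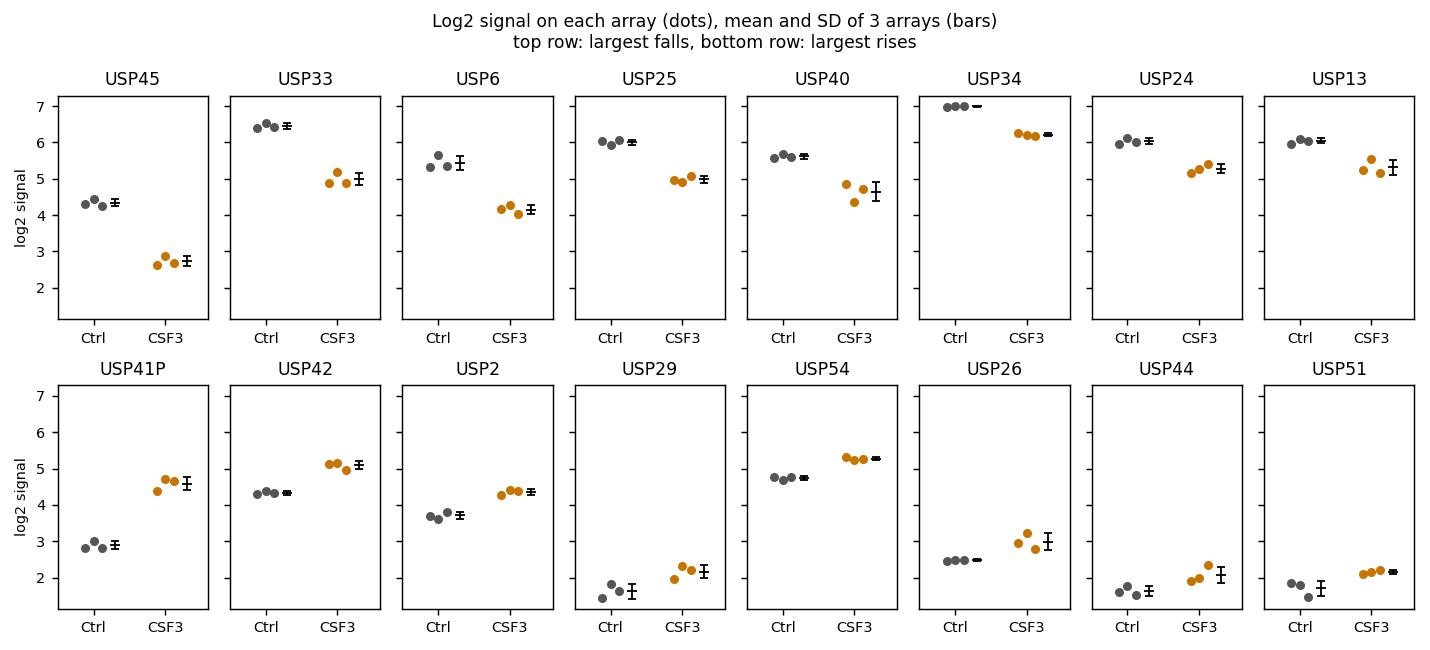
Log2 signal on each array (dots) with mean and SD of 3 arrays (bars) for the 8 USP genes with the largest falls (top row) and the 8 with the largest rises (bottom row) among those called with groups that do not overlap. USP29, USP44 and USP51 in the bottom row lie near 2, where most genes read higher on the CSF3 arrays.

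USP5, USP13 and USP14 look after the ubiquitin pool. USP5 takes apart free ubiquitin chains, USP13 is its close relative, and USP14 sits on the proteasome and trims chains from proteins about to be degraded. USP13 read 5.97, 6.10 and 6.05 on the Ctrl arrays and 5.25, 5.55 and 5.15 on the CSF3 arrays (-0.72 ± 0.10, limma adjusted p = 0.000728). Its groups were well apart and its second probe set gave nearly the same change, -0.71, while the third gave 0.14 and did not pass. USP5 read 5.62, 5.68 and 5.67 against 5.60, 5.59 and 5.64, with overlapping groups (-0.05 ± 0.05, limma adjusted p = 0.394), though after quantile normalization it was called higher (0.21). USP14 read 7.32, 7.36 and 7.36 against 7.17, 7.07 and 7.15, a small fall there on the brightest of its probe sets (-0.22 ± 0.05, limma adjusted p = 0.00784) that was lost after quantile normalization (-0.01, limma adjusted p = 0.908). All 4 probe sets of USP14 were called lower, but their changes spread from -0.22 to -1.44, so the size of its fall depends on the probe set.

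Chromatin USPs were divided. USP22 is the protease of the SAGA coactivator complex, where it removes ubiquitin from histone H2B, and USP27X and USP51 are its smaller relatives. USP22 fell from 8.13, 8.18 and 8.13 to 7.79, 7.79 and 7.74 (-0.37 ± 0.05, limma adjusted p = 0.000505). USP51 rose (0.44 ± 0.10), and so did USP27X (0.22 ± 0.08), so that the 3 relatives did not move together. USP51 read 1.84, 1.79 and 1.47 against 2.09, 2.14 and 2.20, under the lower quartile of all genes on every array, and its call was lost after quantile normalization (0.23, limma adjusted p = 0.0990). USP27X lost its call when array medians were subtracted (0.20) and when any of 4 arrays was left out, which are Ctrl 1, Ctrl 3, CSF3 1 and CSF3 3.

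USP3, USP16 and USP21, which act on histone H2A, all fell slightly, by 0.26 ± 0.05, 0.30 ± 0.05 and 0.33 ± 0.05. Every probe set of these genes was called lower, with falls of 0.75, 0.64 and 0.52 on the dimmer ones. After quantile normalization none of the 3 passed, with changes of -0.08, -0.03 and -0.07. USP42, a nuclear protease linked to p53 and transcription, rose from 4.29, 4.39 and 4.32 to 5.13, 5.16 and 4.96 (0.75 ± 0.07, 1.68-fold, limma adjusted p = 0.000101). Its groups were widely apart, yet of the 7 probe sets of USP42 only 2 were called higher and the changes ranged from -0.41 to 0.75. With the mean of its probe sets the rise was lost (0.07, limma adjusted p = 0.329), and the second brightest gave -0.18. USP44, which guards the mitotic checkpoint, read 1.59, 1.78 and 1.51 against 1.91, 1.98 and 2.33 (0.45 ± 0.12, limma adjusted p = 0.0126), a dim signal whose call was lost after quantile normalization (0.24, limma adjusted p = 0.128). The nucleolar protease USP36 gave 0.06 ± 0.05 on its brightest probe set, with 3 other probe sets called higher and 1 lower. USP49 gave 0.17 ± 0.07, and neither USP36 nor USP49 passed the test. USP36 was called higher after quantile normalization (0.30, limma adjusted p = 0.00262) and with its probe sets averaged (0.19).

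Proteases of p53 control, DNA repair and the cell cycle fell or did not pass, apart from USP2. USP2, which stabilises cyclin D1 and MDM2, read 3.70, 3.62 and 3.81 on the Ctrl arrays and 4.26, 4.42 and 4.39 on the CSF3 arrays (0.64 ± 0.07, 1.56-fold, limma adjusted p = 0.000229). All CSF3 arrays were above all Ctrl arrays, and a second probe set of USP2 rose by 0.29, while the third gave 0.24 and did not pass. After quantile normalization the rise of USP2 was 0.71. USP7, which removes ubiquitin from MDM2 and p53, read 7.48, 7.42 and 7.35 against 7.27, 7.10 and 7.13 (-0.25 ± 0.07, limma adjusted p = 0.0121). The groups did not overlap, and 4 of its 5 probe sets were called lower, with falls from 0.25 to 0.69. The call on the brightest was lost after quantile normalization (-0.04, limma adjusted p = 0.604).

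USP48, a nuclear protease that acts on histone H2A and on RELA, read 6.82, 6.90 and 6.82 against 6.24, 6.35 and 6.28 (-0.56 ± 0.06, limma adjusted p = 0.000144), and 3 of its 5 probe sets were called lower and none higher. USP37, known for acting on cyclin A, passed narrowly (-0.17 ± 0.06, limma adjusted p = 0.0426), and its call was lost when any array other than CSF3 3 was left out, with changes from -0.13 to -0.19. After quantile normalization it read 0.05. USP1, the partner of WDR48 that removes ubiquitin from FANCD2 and PCNA, gave -0.11 ± 0.07, and USP47, which acts on DNA polymerase beta, gave -0.17 ± 0.09. Neither of these 2 passed on its brightest probe set, although 3 of the 4 probe sets of USP47 were called lower, by as much as 0.87, and the dimmest of USP1 was called higher, by 0.40.

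None of the 8 signalling USPs rose and 62.5% fell, near the 11.1% and 63.9% of the bright USP genes. The genes of membranes and organelles also had 62.5% lower, with 12.5% higher. After quantile normalization the signalling genes USP4 (0.12), USP15 (0.01) and USP20 (0.10) lay above 0 without passing. USP4, USP11 and USP15 are close relatives that act on TGF-β receptors and other signalling proteins. USP15 fell from 6.07, 6.10 and 6.11 to 5.83, 5.85 and 5.84 (-0.25 ± 0.05, limma adjusted p = 0.00254). USP11 gave -0.29 ± 0.13 and USP4 gave -0.15 ± 0.09, both with overlapping groups. USP11 was called lower after quantile normalization (-0.44, limma adjusted p = 0.0282) and without CSF3 3 (-0.42), and gave -0.15 without CSF3 1. Of the 7 probe sets of USP15, 4 were called lower and none higher, and the largest fall was 1.19. USP31, a regulator of NF-κB signalling, fell by 0.43 ± 0.11 (limma adjusted p = 0.00808), and all 3 of its probe sets were called lower, by up to 1.29, although the brightest lost its call after quantile normalization (-0.23, limma adjusted p = 0.101). USP25, USP34, USP9X and USP20, described above, complete this group.

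On membranes and organelles, USP8 and USP19 fell and USP12 rose. USP8 sits at endosomes with the ESCRT-0 proteins and spares receptors such as EGFR from degradation. It read 6.36, 6.34 and 6.31 on the Ctrl arrays and 5.98, 5.68 and 5.93 on the CSF3 arrays (-0.47 ± 0.08, limma adjusted p = 0.00193). All 4 of its probe sets were called lower, from -0.47 to -0.81. USP19, anchored in the endoplasmic reticulum, fell by 0.49 ± 0.06 on the brightest (limma adjusted p = 0.000325), while another of its 4 rose by 0.35 and the mean of all gave 0.07. USP12 and USP46 are near-identical proteases that work with WDR48 and WDR20. USP12 rose slightly, from 7.09, 7.17 and 7.15 to 7.29, 7.30 and 7.34 (0.17 ± 0.05, limma adjusted p = 0.0182), a call lost without Ctrl 1 (0.15) and with its probe sets averaged (0.17). On the second brightest probe set USP12 gave 0.04 with overlapping groups. USP46 fell from 5.91, 5.97 and 5.93 to 5.71, 5.36 and 5.62 (-0.37 ± 0.09, limma adjusted p = 0.00840), lost after quantile normalization (-0.11). Of the 9 probe sets of USP46, 5 were called lower and none higher.

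USP30 lies in the outer mitochondrial membrane and opposes the removal of damaged mitochondria. Its 2 probe sets have like levels and went apart: the brighter gave 0.18 ± 0.12 and did not pass (limma adjusted p = 0.214), and the other fell by 0.95. After quantile normalization the brighter was called higher (0.41, limma adjusted p = 0.0225). USP35 gave 0.12 ± 0.07 and did not pass, but was called higher after quantile normalization (0.19, limma adjusted p = 0.0339).

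USP53 and USP54, relatives of which USP53 is found at tight junctions, moved in opposite directions on their brightest probe sets. USP53 read 4.78, 4.71 and 4.78 against 4.47, 4.29 and 4.38 (-0.38 ± 0.06, limma adjusted p = 0.00156), and its second probe set fell by 0.63. USP54 read 4.76, 4.68 and 4.77 against 5.32, 5.22 and 5.27 (0.54 ± 0.06, limma adjusted p = 0.000179), but another of its 3 probe sets fell by 0.57 and the mean of all gave 0.14 (limma adjusted p = 0.112). The direction of USP54 thus differed between its probe sets. So did that of USP39, a splicing factor that has lost protease activity: its brightest probe set rose by 0.21 ± 0.06 (limma adjusted p = 0.0190), and 3 of the 4 others, which are nearly as bright, were called lower. The call on USP39 was also lost without Ctrl 1 (0.21) and without Ctrl 2 (0.20). USP38 gave -0.24 ± 0.11, USP43 gave -0.20 ± 0.16 and USP50 gave 0.20 ± 0.12, and none of these passed on its brightest probe set. The second probe sets of USP38 (-0.26) and USP43 (-0.24) were called lower, and the third of USP38 was called higher (0.39).

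The germ cell genes USP26 and USP29 read dim, with 25.1% and 8.77% of all genes dimmer. USP26 read 2.45, 2.49 and 2.49 on the Ctrl arrays and 2.95, 3.23 and 2.79 on the CSF3 arrays (0.51 ± 0.11, limma adjusted p = 0.00435). USP29 read 1.43, 1.83 and 1.62 against 1.96, 2.33 and 2.21 (0.54 ± 0.13, limma adjusted p = 0.00686). Both rose as most dim genes did, and without detection calls neither is known to lie above background. The call on USP29 was lost after quantile normalization (0.33, limma adjusted p = 0.0582). USP9Y, on the Y chromosome, read dimmer still, with 2.66% of all genes dimmer. It gave 0.24 ± 0.11 and did not pass (limma adjusted p = 0.0785), although its groups did not overlap. Its second probe set, also very dim, was called higher, by 0.34.

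USP41P had the largest rise among the 51. This pseudogene is a near copy of USP18, the protease that removes the ubiquitin-like protein ISG15. It read 2.82, 3.02 and 2.82 on the Ctrl arrays and 4.38, 4.70 and 4.67 on the CSF3 arrays (1.70 ± 0.10, limma adjusted p = 2.04e-05), and the rise was 1.69 after quantile normalization. Its single probe set may also read transcripts of near-identical copies, and which transcript it read was not tested. The other pseudogene, USP32P1, gave -0.13 ± 0.12 and did not pass. USP6NL fell by 0.38 ± 0.10 (limma adjusted p = 0.0113), lost after quantile normalization (-0.22, limma adjusted p = 0.0924).

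Probe sets of 1 gene often differed in size and at times in sign. The 51 genes have 149 single-gene probe sets, of which 72 fell and 26 rose. Over all 44988 such probe sets 65.5% passed, with 28.8% lower and 36.7% higher. Of the 98 probe sets that are not the brightest of their gene, 49 fell and 15 rose. They read the same genes on the same arrays, and the like share over all genes was not computed. Among the 39 genes with several probe sets, 23 had at least 1 lower and none higher, 7 had at least 1 higher and none lower, 7 were called both ways, and 2 (USP28 and USP35) had none called. In percent these are 59.0, 17.9, 17.9 and 5.13, against 32.1, 44.6, 14.5 and 8.77 of the 11734 genes with several probe sets. These shares were not matched for level. The 7 called both ways were USP6, USP19, USP36, USP38, USP39, USP45 and USP54. Of the 23 genes that fell on their brightest probe set and have others, 16 had a dimmer probe set that fell further, as in USP14, USP15 and USP9X. That is 69.6%, against 51.1% of all such genes that fell. The part of the wider 3' to 5' gaps of GAPDH and ACTB in this spread was not tested, and the positions of these probe sets along their transcripts were not used here.

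**Figure D4:**
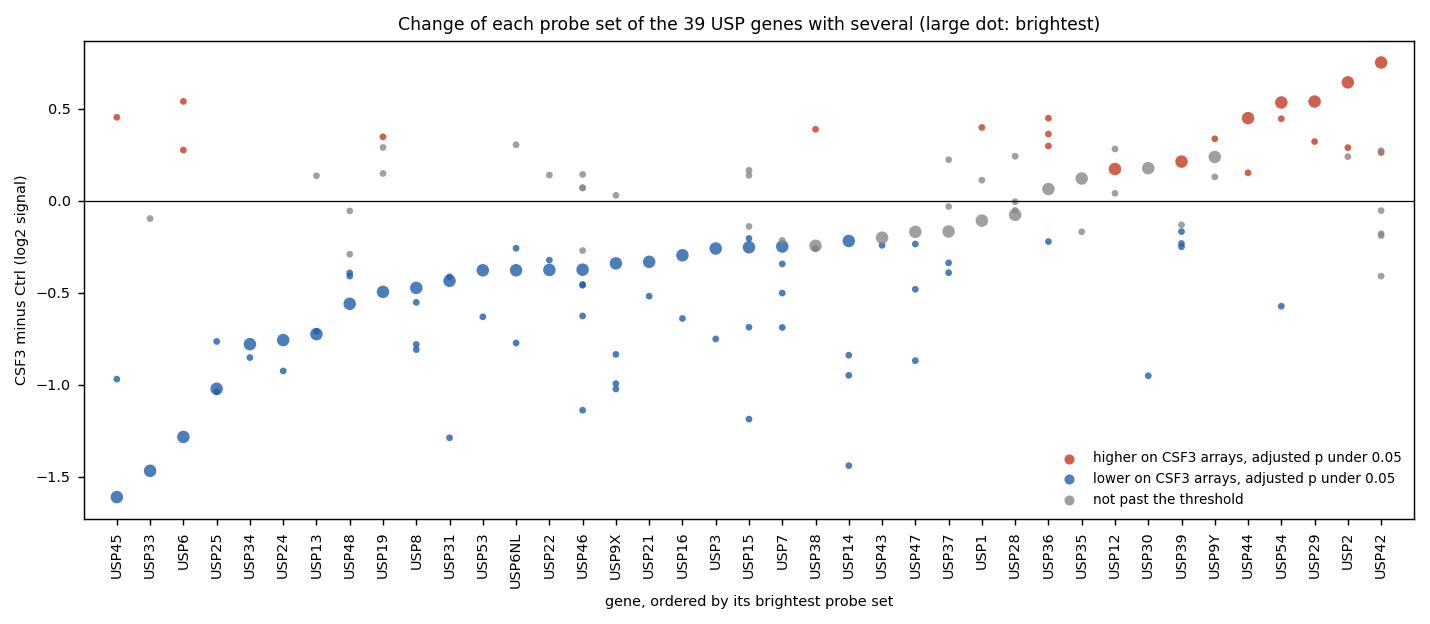
Change (CSF3 minus Ctrl, log2 signal) of every probe set of the 39 USP genes with more than 1, ordered by the brightest (large dots); colour gives the limma call over all probe sets. Small dots reach -1.44 for USP14 and -1.19 for USP15, far below their large dots, and USP6, USP45 and USP54 have dots on both sides of 0.

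Calls that held on the same side under each setting in which the gene was tested, among them its second brightest probe set and the mean of its probe sets, were found for 13 of the 35 USP genes called. The 10 lower ones were USP8, USP9X, USP13, USP22, USP24, USP25, USP34, USP40, USP48 and USP53, and the 3 higher ones were USP2, USP26 and USP41P. USP8 (-0.21) and USP26 (0.32) passed only narrowly after quantile normalization, each with a limma adjusted p of 0.0496. The filter on the dimmest genes removed USP26, so its call was not tested under that setting. USP40, USP26 and USP41P have 1 probe set only, so no second probe set could differ. The dimmest probe sets of USP13 (0.14), USP22 (0.14) and USP9X (0.03) lay above 0 without a call. Leaving out 1 array also gave calls to genes that had none. These were USP1, USP38, USP49 and USP50 without CSF3 1 (-0.17, -0.35, 0.23 and 0.32), USP9Y, USP43 and USP47 without CSF3 2 (0.34, -0.36 and -0.25), and USP4 and USP11 without CSF3 3 (-0.24 and -0.42).

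The promoters of 4 genes with large changes are shown because members that moved together can be compared there: USP45, USP33 and USP25 fell and USP2 rose. Sequences are RefSeq's on GRCh38.p14, from 250 bases before to 50 after the start, 5' to 3' on the gene's strand. They lie at chr6:99515374-99515673 (minus strand, USP45), chr1:77759803-77760102 (minus, USP33), chr21:15729732-15730031 (plus, USP25) and chr11:119364159-119364458 (minus, USP2). Capitals mark matches on either strand to the GC box (GGGCGG), the ETS core (CCGGAAG), the CCAAT box (CCAAT), the STAT site (TTCNNNGAA) or the NF-κB consensus, some of which overlap.
USP45: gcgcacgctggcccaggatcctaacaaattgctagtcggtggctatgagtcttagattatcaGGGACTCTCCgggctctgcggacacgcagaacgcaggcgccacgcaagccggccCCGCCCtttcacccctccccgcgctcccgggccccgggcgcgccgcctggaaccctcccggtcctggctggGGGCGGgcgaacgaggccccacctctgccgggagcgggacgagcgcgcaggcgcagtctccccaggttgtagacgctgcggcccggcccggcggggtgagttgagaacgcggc
USP33: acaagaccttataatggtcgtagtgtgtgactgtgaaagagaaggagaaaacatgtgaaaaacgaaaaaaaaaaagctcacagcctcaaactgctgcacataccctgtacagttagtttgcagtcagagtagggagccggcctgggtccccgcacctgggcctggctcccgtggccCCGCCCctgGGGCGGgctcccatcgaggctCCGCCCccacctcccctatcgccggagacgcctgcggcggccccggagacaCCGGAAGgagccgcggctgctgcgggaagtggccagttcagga
USP25: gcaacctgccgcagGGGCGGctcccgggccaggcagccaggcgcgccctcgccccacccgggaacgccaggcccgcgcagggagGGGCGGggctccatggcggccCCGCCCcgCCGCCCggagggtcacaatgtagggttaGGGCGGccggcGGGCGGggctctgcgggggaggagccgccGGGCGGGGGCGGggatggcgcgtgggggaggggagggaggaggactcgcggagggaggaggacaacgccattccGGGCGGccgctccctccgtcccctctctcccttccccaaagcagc
USP2: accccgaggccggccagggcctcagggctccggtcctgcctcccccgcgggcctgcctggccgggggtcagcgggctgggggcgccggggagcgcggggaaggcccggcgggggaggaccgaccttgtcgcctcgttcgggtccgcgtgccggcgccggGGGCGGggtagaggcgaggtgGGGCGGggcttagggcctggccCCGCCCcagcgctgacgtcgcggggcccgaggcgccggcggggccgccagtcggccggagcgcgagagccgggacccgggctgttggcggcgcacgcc

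USP promoters are rich in G and C. Entries were found for 38 of the 51 genes, with 52 promoters in all, and their median GC content was 68.0%, against 58.7% for all 35116 promoters of the table. USP25 has 9 matches to the GC box and USP45, whose fall was larger, has 2. The GC box was found in 71.2% of the USP promoters and 45.0% of all. It was in 18 of the 23 promoters of genes that fell, 8 of 12 of those that rose and 11 of 17 of those not called. The NF-κB consensus was in 17.3% of the USP promoters and 11.3% of all, and it was in 5 of 23, 3 of 12 and 1 of 17 promoters of these classes. Some genes have more than 1 promoter, so these counts are not of separate genes. The 3 with a match among those that rose belong to USP39 and USP27X, neither of which kept its call under every setting. The ETS core was in 23.1% and 10.3%, the CCAAT box in 26.9% and 34.6%, and the STAT site in 5.77% and 7.66%. A match of letters is a description and does not show binding.

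Other deubiquitinases and relatives of such enzymes, none with a USP symbol, also fell more often than they rose. Of 36 measured, 16 fell and 8 rose (44.4% and 22.2%, against 27.1% and 45.4% of all genes), with a median of -0.07 against 0.16. Of all genes above the median level 46.8% fell and 27.1% rose, and 32 of the 36 passed the filter on the dimmest genes. After quantile normalization 12 of the 36 were lower and 9 higher, against 20.1% and 39.2% of all genes. TNFAIP3, which encodes the NF-κB feedback inhibitor A20, rose by 1.45 ± 0.08, ATXN3 by 0.80 ± 0.06 and OTUD1 by 0.64 ± 0.05. VCPIP1, which acts with the ATPase VCP in Golgi assembly, fell by 1.29 ± 0.09, STAMBPL1, an endosomal relative of AMSH, fell by 1.06 ± 0.08 and JOSD1 fell by 0.75 ± 0.05. The proteasome-bound PSMD14 did not pass (-0.07 ± 0.05).

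Binding partners and substrates of USPs were split as well: of 20, 9 were lower and 4 higher, against 27.1% and 45.4% of all genes. Their median was -0.08, against 0.16 for all genes. All of these partners and substrates passed the filter on the dimmest genes. Of all genes above the median level 46.8% fell and 27.1% rose. After quantile normalization rises outnumbered falls in this list, with 6 lower and 8 higher, against 20.1% and 39.2% of all genes. In the SAGA deubiquitinating module, which holds USP22 to chromatin, ENY2 rose (0.72 ± 0.05) and ATXN7L3 rose (0.29 ± 0.06) while ATXN7 fell by 0.52 ± 0.06. WDR20, the partner of USP12 and USP46, fell by 0.70 ± 0.08, and WDR48, shared with USP1, gave 0.07 ± 0.06 and did not pass. STAM2, a partner of USP8 at endosomes, fell by 0.86 ± 0.09. ADRM1, a ubiquitin receptor of the proteasome, rose by 0.46 ± 0.05. The p53 ligase MDM2, a substrate of USP7 and USP2, did not pass (-0.06 ± 0.05, limma adjusted p = 0.371). Of 7 genes that supply ubiquitin, NEDD8 and ISG15 or activate them, ISG15 rose by 0.69 ± 0.06 and UBA7, which activates ISG15, by 0.17 ± 0.07. The call on UBA7 (limma adjusted p = 0.0496) was lost with array medians subtracted and when any array other than Ctrl 1 was left out. UBA6, which activates ubiquitin, fell by 0.70 ± 0.05, and UBA3, which activates NEDD8, fell by 0.40 ± 0.11. The ubiquitin gene UBB gave -0.08 ± 0.05 and did not pass. The limma adjusted p of the genes named here from these lists as higher or lower was at most 0.0496.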

How the data were processed

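The table the authors deposited holds 49395 probe sets with 1 value on each array, taken as log2 signals from their range. How these were background-corrected, summarised and normalized is not given in the sources used here. Array means were nearly equal and quantiles were not. Probe sets were named by GEO's platform annotation. Of these, 44988 have 1 gene, and the 1832 with several genes, as well as those without any, were not used. The brightest single-gene probe set over the 6 arrays stood for its gene.

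CSF3 minus Ctrl was fitted over all 18132 genes, and separately over all single-gene probe sets, in limma 3.58.1 (R 4.3.3) by lmFit followed by eBayes, without covariates and with Benjamini-Hochberg adjustment at 0.05. The fit was tested on simulated data. Values are log2 signals, mean ± SD of 3 arrays, and changes are differences ± SE. The number of arrays limits the precision, and no detection calls were used. Alternatives were quantile normalization, array medians subtracted, a filter on the 30% dimmest genes, other probe sets of a gene, trend and robust eBayes, Student's test without moderation, the replicate number as a block, and leaving out each array.

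The members, roles and lists were chosen with earlier results of these data known. Values on each array are given for the 8 called genes with the largest rises and the 8 with the largest falls whose groups do not overlap, for USP7 and USP14, and for genes set beside them, some chosen after their values were seen. From each other list the 3 genes with the smallest p in each direction are named, with WDR48, MDM2, PSMD14 and UBB added afterwards.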

Additional observations from a re-analysis of the deposited data

Results flagged for a closer look

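Control probe sets, which no comparison above uses, differed between the groups. The median of the 18 hybridisation control probe sets was 8.36 ± 0.05 (SD, n = 3) on the CSF3 arrays and 6.82 ± 0.07 on the Ctrl arrays. These controls carry no RNA of the cells, and their part in the USP results was not tested.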

How the results depend on the processing

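The 11 rises among USP genes became 7 with the 30% dimmest left out, the 24 falls became 15 after quantile normalization, and both counts stayed within 1.5 times under the other settings. The median of -0.20 became -0.019 after quantile normalization, -0.25 without the dimmest and -0.155 with probe sets averaged. The 26 higher probe sets became 15 without the dimmest, 17 by Student's test and from 17 (without Ctrl replicate 1) to 28 (without CSF3 replicate 2) with 1 array left out. Among partners the 4 rises became 8 after quantile normalization and 2 with probe sets averaged. In the ubiquitin and ISG15 supply list the 2 rises became 4 after quantile normalization, 1 with array medians subtracted, 1 under the replicate block and 1 to 2 with an array left out, and the 2 falls became 1 after quantile normalization and 1 on second brightest probe sets.

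Signs turned after quantile normalization for USP15 (0.012), USP38 (0.0055), USP47 (0.089), USP37 (0.045), USP4 (0.12), USP20 (0.10), USP1 (0.12), USP28 (0.11), USP5 (0.21), USP49 (-0.027) and USP50 (-0.019). On the second brightest probe set they turned for USP45 (0.45), USP6 (0.54), USP19 (0.15), USP1 (0.11), USP36 (-0.22), USP35 (-0.17), USP30 (-0.95), USP39 (-0.17), USP54 (-0.57) and USP42 (-0.18), and with probe sets averaged for USP19 (0.074), USP1 (0.135), USP28 (0.028), USP35 (-0.023), USP30 (-0.39) and USP39 (-0.11). USP28 also turned without CSF3 replicate 2 (0.016), the highest value with an array left out, the lowest being -0.14. The cause was not tested.

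Arrays of the same replicate number did not deviate together (r from 0.027 to 0.038 over genes), although each was the highest of its number, so the numbers were not taken as pairs. Under the replicate block 10 USP genes rose and 24 fell.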
